A study of Rattus norvegicus with 6 samples.

Results

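The muscle-type miRNAs rno-miR-206-3p, rno-miR-1b, rno-miR-1-3p, rno-miR-499-5p, rno-miR-133a-3p and rno-miR-133b-3p (the species prefix rno- is mostly left out in what follows) were taken by name from the small RNA sequencing of rat peri-infarct cortex, and all 6 had a row among the 493 mature miRNAs counted. In both groups the right middle cerebral artery of male Sprague-Dawley rats was occluded for 90 min and then reperfused (MCAO). The MCAO group (n = 3) received no stimulation, and its cortex was collected at 7 days. The MCAO + rTMS group (n = 3) received 10 Hz repetitive transcranial magnetic stimulation for 10 min per day on 7 days, from a coil above the motor cortex of the injured side. Stimulation began a day after reperfusion. The labels of the stimulated rats give no day of collection, though the study elsewhere places the sequenced tissue at 7 days after the operation. The methods give 3 rats per group for sequencing, and no sham-operated rat was sequenced among the libraries used here. The question asked of these miRNAs was whether mates from 1 primary transcript moved together when the groups were compared.

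These miRNAs are known as myomiRs, since heart and skeletal muscle express them far above other tissues. The miR-1 and miR-133a genes lie side by side and are cut from a shared primary transcript, and so do those of miR-206 and miR-133b, which are used mainly in skeletal muscle. In differentiating muscle cells, miR-1 and miR-206 promote differentiation, for example through the histone deacetylase HDAC4, while miR-133 favours proliferation through the serum response factor SRF. miR-499 is cut from an intron of the myosin heavy chain gene Myh7b. In the brain they are minor miRNAs, among which miR-206 is known for repressing the neurotrophin BDNF and miR-133b for its study in dopamine neurons and after stroke.

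The mature sequences are shown because members with a shared seed moved in the same direction, and because several members differ by so few bases that reads could be divided between them in counting. They come from RefSeq with the GRCr8 build, in which all 6 names were found. Each is written 5′ to 3′ with the seed, bases 2 to 8, in capitals.
miR-1-3p: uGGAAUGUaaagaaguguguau
miR-1b: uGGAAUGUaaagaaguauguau
miR-206-3p: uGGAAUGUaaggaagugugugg
miR-133a-3p: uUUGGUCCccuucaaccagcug
miR-133b-3p: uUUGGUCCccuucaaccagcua
miR-499-5p: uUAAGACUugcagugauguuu

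miR-206-3p, miR-1b and miR-1-3p share the seed GGAAUGU, and no other row of the table with a RefSeq sequence had it. The seed UUGGUCC was shared by miR-133a-3p and miR-133b-3p alone, and miR-499-5p had the seed UAAGACU to itself. Counted from 1 at the 5′ end, miR-1-3p and miR-1b differ by G17A (miR-1-3p first), and miR-133a-3p and miR-133b-3p differ by G22A (miR-133a-3p first) at the last base. miR-206-3p differs from miR-1-3p at 3 positions, A11G, A21G and U22G (miR-1-3p first). The rule by which the authors assigned reads that match several miRNAs is not given in the sources used here, so the division of reads within the miR-1 pair and within the miR-133 pair is uncertain. In GRCr8 the genes Mir1 and Mir133a1 are neighbours on the minus strand of chromosome 18 and Mir206 and Mir133b on the plus strand of chromosome 9, while Mir1b and Mir499a lie on the plus strand of chromosome 3. The counts were made with rn6, so no positions are given. For each member only 1 hairpin was listed, and a mature read does not show which gene it came from. Reads of miR-133a-3p from a gene other than Mir133a1, if any, would enter its ratio to miR-1-3p. Mates are therefore, in what follows, members whose listed genes are neighbours.

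Levels are given as CPM, the edgeR unit in which each count is set against a library total scaled by its TMM factor, and values of 1 group follow the order of replicates 1, 2 and 3. The total counts lay between 10492610 and 15411620 per library, and the factors were 1.16 to 1.39 in the MCAO group and 0.695 to 0.864 in the MCAO + rTMS group. None of the 6 members had a count of 0 in any library, and their counts ran from 13 to 3963. In the MCAO libraries the members summed to 145 to 209 CPM, and in the MCAO + rTMS libraries to 390 to 540 CPM. The brain miRNAs miR-128-3p, miR-9a-5p, miR-124-3p and miR-138-5p summed to 323535 to 420388 CPM and 423227 to 610344 CPM in the same libraries, so these brain miRNAs together were far above the members. Most of that sum was miR-128-3p and miR-9a-5p. Of the 4, miR-128-3p was higher (log2 fold change 0.69, edgeR, adjusted p = 0.0358) and miR-138-5p lower (log2 fold change -1.65, edgeR, adjusted p = 0.000449), and miR-138-5p lay at 157.0 to 199.4 CPM in the stimulated rats, in the range of the members. As the tissue is a mixture, fewer cells of a type and less RNA per cell cannot be told apart.

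The 3 members with the seed GGAAUGU were higher in the MCAO + rTMS group, and the other 3 were lower. All 6 passed the threshold of 0.05 on p-values adjusted by Benjamini-Hochberg over the 452 miRNAs tested (quasi-likelihood test of edgeR). In the same test 55.3% of all miRNAs were called, 27.2% higher and 28.1% lower. The libraries of the groups did not overlap in CPM for any of the 6 members, against 66.8% of all tested miRNAs. With more than 1 in 2 of all miRNAs called, the number of members called is not in itself a result about the muscle-type miRNAs, and what follows describes their direction, their size and their ratios.

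rno-miR-206-3p, the skeletal muscle member of the seed family, had the highest mean of the 6 in both groups, which in the MCAO group rested on replicate 2, since at least 1 other member was above it in replicates 1 and 3. It was at 39.4, 82.5 and 30.8 CPM in the MCAO rats and at 229.7, 334.1 and 199.6 CPM in the stimulated rats. MCAO replicate 2 stood above the other MCAO libraries, and the lowest stimulated library was still above it. The log2 fold change was 2.32 ± 0.41 (SE; edgeR, adjusted p = 0.00300), or 5.01-fold. Without MCAO replicate 2 the log2 fold change was 2.86. The spread of miR-206-3p over the MCAO rats, with a standard deviation of 54.5% of the mean, was the widest of the 6 members in that group.

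rno-miR-1b was at 39.8, 39.4 and 36.9 CPM in the MCAO rats and at 167.4, 133.2 and 136.0 CPM in the stimulated rats. Its MCAO values were the tightest of the 6 members, with a standard deviation of 4.09% of the mean. The log2 fold change of 1.91 ± 0.18 (SE; edgeR, adjusted p = 0.000266) was the smallest rise of the 3 and also the one with the smallest error. rno-miR-1-3p was at 6.18, 8.0 and 5.82 CPM in the MCAO rats and at 48.0, 37.9 and 25.4 CPM in the stimulated rats. The highest MCAO value was less than the lowest stimulated value, although the stimulated rats varied from 25.4 to 48.0 CPM. Its log2 fold change of 2.48 ± 0.29 (SE; edgeR, adjusted p = 0.000642), or 5.57-fold, ranked 9 from the top among the 452 miRNAs, while miR-206-3p ranked 13 and miR-1b ranked 28.

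rno-miR-133a-3p, the mate of miR-1-3p, was at 31.2, 45.3 and 43.7 CPM in the MCAO rats and at 24.1, 19.1 and 13.6 CPM in the stimulated rats. The highest stimulated value came close to the lowest MCAO value without reaching it. The log2 fold change was -1.08 ± 0.26 (SE; edgeR, adjusted p = 0.0120), which is 2.11-fold lower. rno-miR-133b-3p, the mate of miR-206-3p, was the least abundant member and rests on few reads. It had 83, 83 and 75 counts in the MCAO rats and 41, 36 and 13 counts in the stimulated rats, or 4.70 to 6.85 CPM without and 1.26 to 3.08 CPM with rTMS. The log2 fold change was -1.17 ± 0.39 (SE; edgeR, adjusted p = 0.0355), the largest adjusted p of the 6.

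The calls of the miR-133 pair were the least stable. Without MCAO replicate 2 both lost the threshold, with adjusted p = 0.0574 for miR-133a-3p and adjusted p = 0.112 for miR-133b-3p in edgeR's test, and the number of members called lower dropped from 3 to 1. miR-133b-3p also lost it without MCAO replicate 1 (adjusted p = 0.0786), MCAO replicate 3 (adjusted p = 0.0559) or MCAO + rTMS replicate 2 (adjusted p = 0.0765). With the counts of miR-133a-3p and miR-133b-3p summed to 1 row, since they differ by the last base only, the log2 fold change was -1.03 ± 0.26 (SE; edgeR, adjusted p = 0.0137). With miR-206-3p, miR-1b and miR-1-3p summed in the same fit, it was 2.24 ± 0.27 (SE; edgeR, adjusted p = 0.000658).

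rno-miR-499-5p, the product of the myosin gene Myh7b and a marker of slow and heart muscle, was at 40.1, 27.2 and 23.0 CPM in the MCAO rats and at 10.1, 12.3 and 13.7 CPM in the stimulated rats. MCAO replicate 1 was the highest of the MCAO libraries, and each MCAO library was above each stimulated one. The log2 fold change was -1.33 ± 0.26 (SE; edgeR, adjusted p = 0.00512), which is 2.51-fold lower. Without MCAO replicate 1 it was -1.06, with adjusted p = 0.0177 in edgeR's test, and the order of the 3 falls by size changed.

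**Figure D1:**
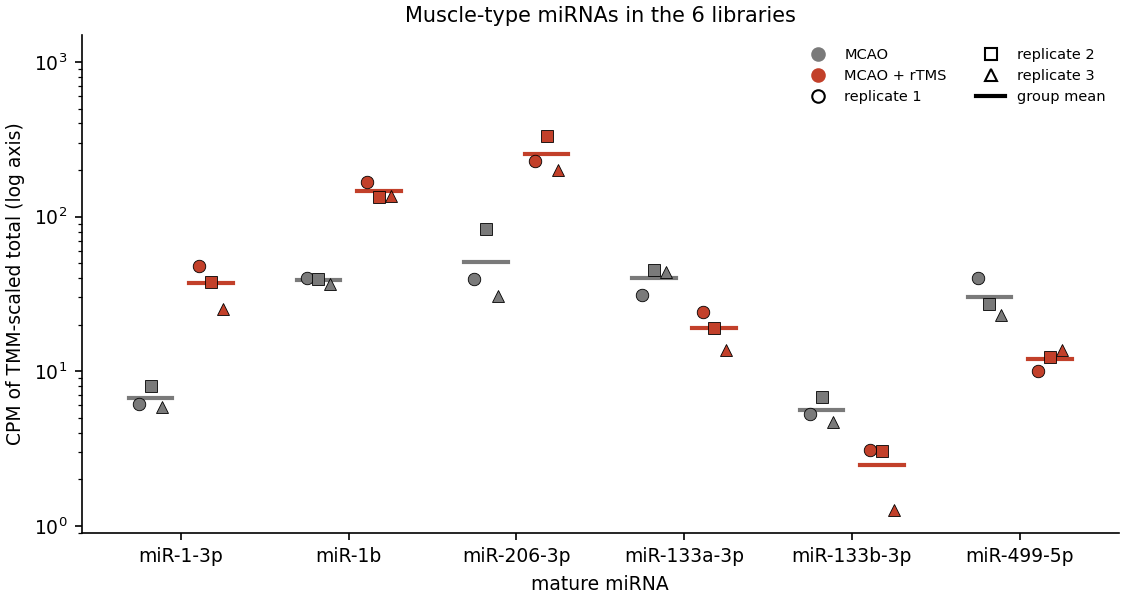
Level of each member in the 6 libraries, as CPM of the TMM-scaled total on a log axis, with 1 symbol per rat and a bar at the mean of each group. The stimulated libraries lie above all MCAO libraries for miR-206-3p, miR-1b and miR-1-3p and below them for miR-499-5p, miR-133a-3p and miR-133b-3p, where miR-133b-3p falls to 1.26 CPM in MCAO + rTMS replicate 3.

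The order of the members by level changed between the groups. In the MCAO group the means were 50.9 ± 27.7 CPM for miR-206-3p, 40.0 ± 7.71 for miR-133a-3p, 38.7 ± 1.58 for miR-1b and 30.1 ± 8.89 for miR-499-5p (SD, n = 3 each), and the ranges of these 4 overlapped. miR-1-3p at 6.67 ± 1.17 CPM and miR-133b-3p at 5.61 ± 1.11 CPM (SD, n = 3 each) overlapped each other below them. In the MCAO + rTMS group the order was miR-206-3p at 254.5 ± 70.6 CPM, miR-1b at 145.5 ± 19.0, miR-1-3p at 37.1 ± 11.3, miR-133a-3p at 18.9 ± 5.23, miR-499-5p at 12.0 ± 1.83 and miR-133b-3p at 2.46 ± 1.04 (SD, n = 3 each). There the only neighbours whose ranges overlapped were miR-133a-3p and miR-499-5p. These mature miRNAs are 21 or 22 bases long, so length does not bias the order, but the efficiency with which each sequence was ligated into the library is unknown. Counted alone, miR-1-3p passed from below miR-133a-3p to above it. With miR-1-3p and miR-1b summed, the ratio to miR-133a-3p was 1.47, 1.05 and 0.978 in the MCAO rats. In the stimulated rats it was 8.95, 8.94 and 11.9, a log2 difference of 3.10.

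Within 1 library the ratio of 2 counts does not depend on how the library is scaled. The ratio of miR-1-3p to miR-133a-3p was 0.198, 0.177 and 0.133 in the MCAO rats and 1.99, 1.98 and 1.86 in the stimulated rats. Among the stimulated rats the highest ratio was 1.07 times the lowest, while miR-1-3p itself varied by 1.89 times and miR-133a-3p by 1.77 times. The counting intervals of these ratios were wider than that, from 1.51 to 2.31 in replicate 3. The difference of the log2 ratios was 3.53, or 11.6 times, with a 95% interval of 2.99 to 4.08 (limma over all neighbouring pairs, adjusted p = 0.000189).

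The ratio of miR-206-3p to miR-133b-3p was 7.46, 12.0 and 6.55 in the MCAO rats and 74.5, 110.1 and 158.0 in the stimulated rats. The last value rests on 13 counts of miR-133b-3p, and its 95% exact binomial interval, which covers counting error only, ran from 92.2 to 297.2. The difference of the log2 ratios was 3.68, or 12.8 times, with a 95% interval of 2.78 to 4.57 (limma, adjusted p = 0.000458). The change was thus of like size in both pairs, and neither pair overlapped between the groups. These differences restate the fold changes of the members free of the scaling and are not separate evidence for them.

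Among ratios of members that moved in the same direction, none of 6 separated the groups. miR-133a-3p stood to miR-133b-3p as 5.90, 6.61 and 9.29 in the MCAO rats and as 7.80, 6.31 and 10.8 in the stimulated rats (exact two-sided permutation test, p = 0.6). miR-1-3p stood to miR-206-3p as 0.157, 0.0970 and 0.189 in the MCAO rats and as 0.209, 0.113 and 0.127 in the stimulated rats (exact permutation test, p = 1.0). The ratio of miR-1-3p to miR-1b, the pair separated by 1 base, was 0.155, 0.203 and 0.158 in the MCAO rats and 0.287, 0.284 and 0.187 in the stimulated rats, a log2 difference of 0.53 (exact permutation test, p = 0.2). The groups overlapped in each of these ratios. miR-133a-3p and miR-499-5p, from different genes, had ratios of 0.778 to 1.89 and 0.993 to 2.39 in the groups. The other 9 of the 15 ratios are those of a rising to a falling member. As the libraries of every member already did not overlap, these ratios could not overlap either, and their exact permutation p of 0.1, the smallest that 3 rats against 3 allow, adds nothing. A p above the threshold in so small a design does not show that ratios were equal.

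**Figure D2:**
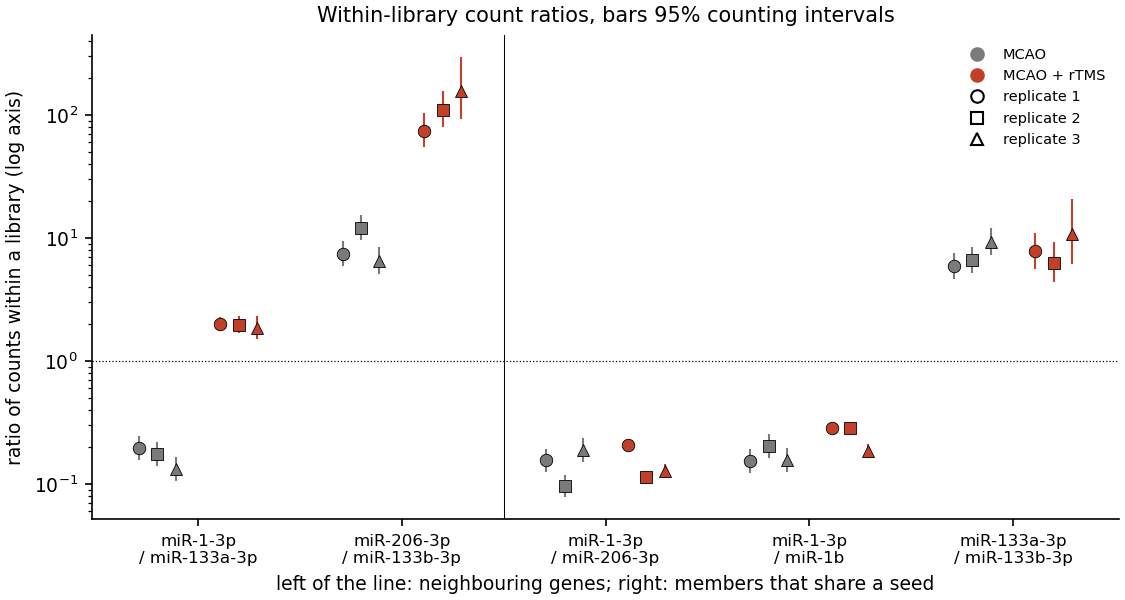
Ratio of counts within each library on a log axis, for both pairs of neighbouring genes (left of the vertical line) and for 3 pairs of members that share a seed (right), with exact 95% binomial intervals for counting error. The neighbouring pairs rise from 0.133 to 0.198 up to 1.86 to 1.99 and from 6.55 to 12.0 up to 74.5 to 158.0, while the groups overlap in the 3 pairs with a shared seed.

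As shares of all reads on the 6 members, the family with the seed GGAAUGU held 52.7%, 62.1% and 50.7% in the MCAO rats and 92.3%, 93.6% and 92.7% in the stimulated rats. The miR-133 family held 26.9% ± 5.70 without and 4.52% ± 0.973 with rTMS, and miR-499-5p 17.9% ± 6.12 and 2.63% ± 0.775 (SD, n = 3 each). The share of the GGAAUGU family could not overlap between the groups, as its members all rose and the others all fell without overlap. These shares restate the changes of the members and are not separate evidence for them. Inside the seed family, miR-206-3p held 50.5% ± 11.5 of the reads without and 57.7% ± 7.55 with rTMS (SD, n = 3 each), and these ranges overlapped.

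To set the muscle-type pairs beside other clusters, the same ratio was fitted for 80 pairs of neighbouring miRNA genes. For each hairpin the most abundant arm was taken among the tested arms whose names are in RefSeq, which is not always the major arm. The genes of a pair lie within 10 kb on 1 strand. Of these pairs 47.5% had a ratio that differed between the groups with an adjusted p under 0.05 in limma. The median size of the log2 difference was 1.12, and the quartiles were 0.54 and 1.92. The pair miR-206-3p and miR-133b-3p ranked 7 and the pair miR-1-3p and miR-133a-3p ranked 8 by size. In 8 of the 80 pairs a mate was listed at 0 in at least 1 library, so that the size depends on the 0.5 added to each count, and 5 of the 6 pairs with larger differences were of this kind. Among the 72 pairs without a 0 the muscle-type pairs ranked 2 and 3. Of the 6 larger pairs, miR-99a-3p with let-7c-5p (size 4.21) took the 3p arm of miR-99a. miR-99a-5p, with a mean count of 296735, was tested but entered no pair. Its log2 fold change was -0.19, against -1.58 for miR-99a-3p, and its ratio to let-7c-5p was not fitted. The ranks depend on this choice of arm. Mates called in opposite directions by edgeR were found in 14 of the 80 pairs, or 17.5%, and mates called in the same direction in 18, or 22.5%. Divergence of neighbours was thus common in the table, and both muscle-type pairs belonged to the pairs with the larger differences.

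**Figure D3:**
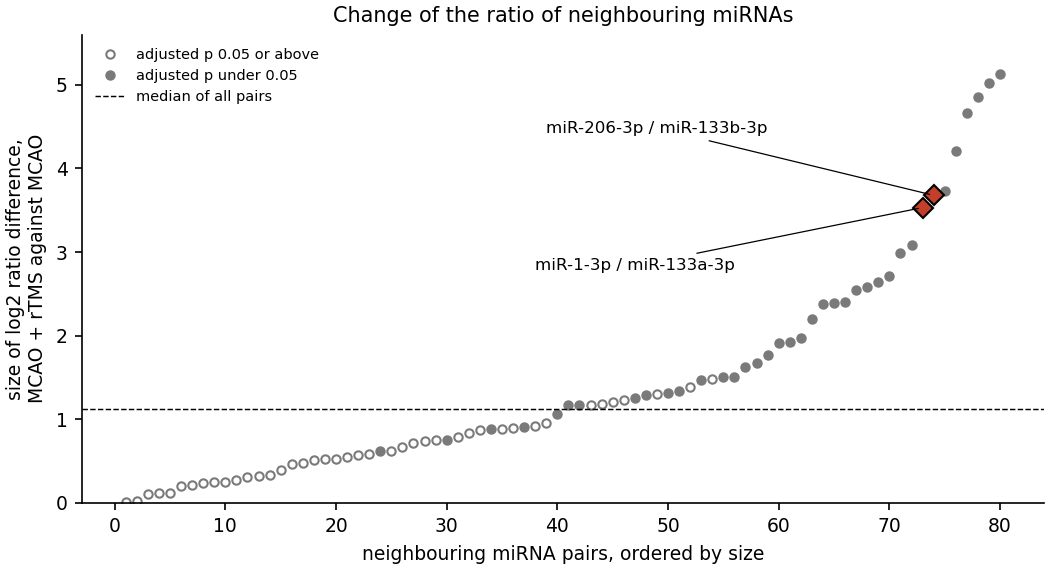
Size of the difference between MCAO + rTMS and MCAO in the log2 ratio of each of 80 neighbouring miRNA pairs, in increasing order, with filled points for an adjusted p under 0.05 in limma and a dashed line at the median of 1.12. Diamonds mark miR-1-3p to miR-133a-3p at 3.53 and miR-206-3p to miR-133b-3p at 3.68, among the highest 8 pairs.

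The direction of each member was the same under each scaling tried. Scaled by library totals alone, the changes were 1.89 for miR-1-3p, 1.29 for miR-1b, 1.76 for miR-206-3p, -1.69 for miR-133a-3p, -1.75 for miR-133b-3p and -1.95 for miR-499-5p. That scaling moved the median log2 fold change of all tested miRNAs from -0.21 to -0.80. Relative to the median, miR-1-3p changed by 2.68 (TMM) and 2.69 (library totals), and miR-133a-3p by -0.87 and -0.88.

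**Figure D4:**
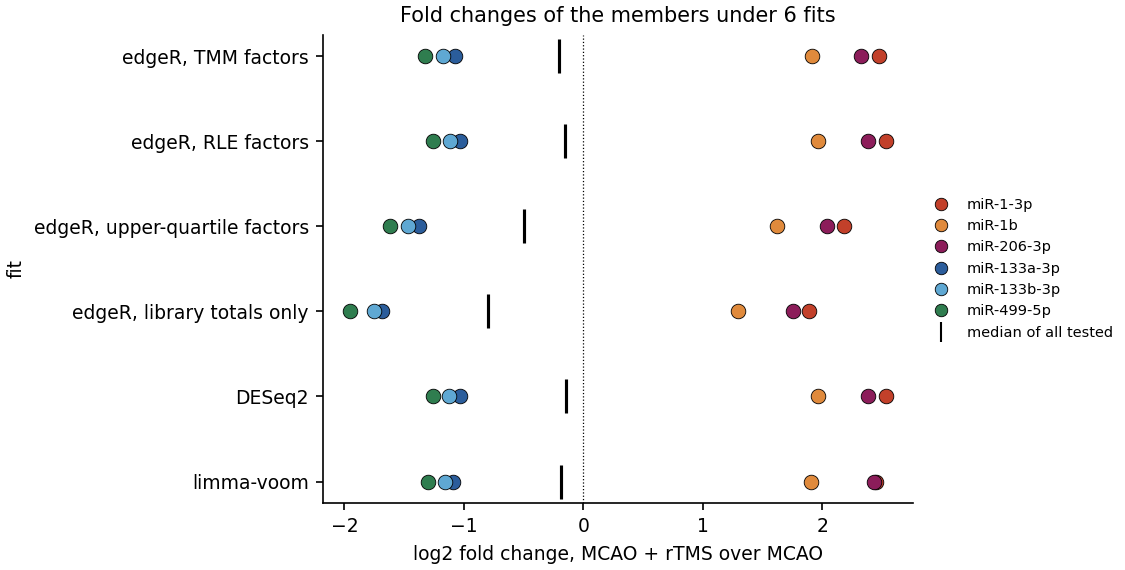
Log2 fold change of each member between MCAO + rTMS and MCAO under 6 fits, with a vertical tick at the median of all tested miRNAs. The members shift together with the median, at -0.21 for TMM and at -0.80 for library totals only, and no member crosses 0.

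Other miRNAs enriched in muscle also took both directions. Of a list of 12 further names 3 had a row, and the other 9, among them the heart miRNAs miR-208a and miR-208b, are not analysed here. miR-486, which is abundant in muscle and in red blood cells, rose from 170.0 ± 61.8 to 561.1 ± 61.9 CPM (SD, n = 3 each; log2 fold change 1.72, adjusted p = 0.00221 in edgeR's test). miR-378a-3p, cut from the gene of the metabolic coactivator PGC-1β, rose with a log2 fold change of 1.29 (adjusted p = 0.00167 in edgeR's test). Its partner arm miR-378a-5p fell (log2 fold change -0.64, adjusted p = 0.0301 in edgeR's test). The list of skeletal and heart muscle markers held no further row, since the 6 of its 8 names with a row are the members themselves.

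Markers of other cells were set beside these values. Of the blood list, 1 of 4 tested was higher (miR-486) and 3 were lower, and the list summed to 315 to 506 CPM without and 596 to 687 CPM with rTMS. Most of the sum with rTMS was miR-486, at 502.7, 554.7 and 626.0 CPM. Of the smooth muscle and pericyte list, 1 of 3 was higher (miR-143-3p, log2 fold change 1.07), none was lower, and the sums were 1972 to 3495 CPM and 4361 to 6733 CPM. Most of these sums was miR-143-3p, while miR-145-5p had a log2 fold change of -0.08 and miR-145-3p of 0.17. Of the endothelial list, 1 of 2 was lower and none higher, with sums of 2993 to 6298 CPM and 2017 to 3293 CPM. Of the 2 tested on the oligodendrocyte list 1 was higher (miR-219a-2-3p) and none lower. The sums were 572 to 786 CPM and 963 to 2106 CPM, mostly miR-219a-2-3p. The other, miR-338-3p, had a log2 fold change of -0.73 (edgeR, adjusted p = 0.0596). miR-219a-5p was too low to test, with counts of 10, 0 and 12 in the MCAO libraries and 0 in each stimulated library. The lowest count above 0 listed for any miRNA was 10. Neither marker of the choroid plexus passed the threshold, with sums of 418 to 551 CPM and 593 to 1135 CPM. The part of muscle tissue, blood or vessels in the results for the members was not tested.

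The miRNAs with the most similar profiles were sought among those with a mean count above 200, by the root-mean-square difference of log2(CPM + 1) centred on the mean of the 6 libraries. Since the groups differ, such likeness reflects the fold change first. The 1 added to each CPM also shrinks the differences of members at few CPM, above all miR-133b-3p at 1.26 to 6.85 CPM. For miR-1-3p the nearest was miR-1b (0.30, where the median miRNA was at 1.24), followed by miR-181a-2-3p (0.30). For miR-206-3p they were miR-1-3p (0.40) and miR-486 (0.43), and for miR-1b they were let-7a-5p (0.13) and miR-493-5p (0.16). miR-1-3p and miR-206-3p, from different chromosomes, were closer to each other than either was to its own mate. miR-1-3p differed from its mate by 1.68 and miR-206-3p by 1.72. As the mates moved in opposite directions, this restates the fold changes and is not separate evidence. For the falling members the nearest were miR-29b-5p (0.17) and miR-652-3p (0.23) for miR-133a-3p, miR-212-3p (0.16) and miR-129-2-3p (0.18) for miR-133b-3p, and miR-380-3p (0.19) and miR-495 (0.21) for miR-499-5p. miR-133b-3p was at 0.22 from miR-133a-3p, closer than miR-652-3p, but its mean count of 55.2 kept it out of the search.

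The libraries did not rank alike for all members. Among the stimulated rats, MCAO + rTMS replicate 3 had the lowest level of miR-1-3p, miR-206-3p and both miR-133 forms and the highest of miR-499-5p. This library also had the smallest TMM factor, 0.695, and the most miRNAs at 0, 77 of 493. Without it the log2 fold changes were 2.72 for miR-1-3p, 2.50 for miR-206-3p, -0.86 for miR-133a-3p, -0.84 for miR-133b-3p and -1.40 for miR-499-5p, and all 6 members kept an adjusted p under 0.05 in edgeR's test. Among the MCAO rats, replicate 2 had the highest miR-1-3p, miR-206-3p, miR-133a-3p and miR-133b-3p, while replicate 1 had the highest miR-499-5p.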

How the data were processed

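Small RNA of peri-infarct cortex was sequenced from 3 MCAO and 3 MCAO + rTMS rats on an Illumina HiSeq machine. The table the authors deposited holds raw counts, not normalized, of 493 mature miRNAs. Their processing notes name bcl2fastq, BWA, DESeq2 and the rn6 build. The miRNA database and the rule for multiply matching reads are not given in the sources used here. No count from 1 to 9 occurs. The authors' own selection of 73 miRNAs repeats these counts, which was checked, and entered no test.

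The groups were compared by edgeR 4.0.16 in R 4.3.3: filterByExpr (452 kept), TMM factors, and the quasi-likelihood test without a block, with Benjamini-Hochberg adjustment over the 452. The standard error is the log2 fold change divided by the square root of F. Ratios of neighbouring miRNAs, after adding 0.5 to each count, were fitted with limma 3.58.1 and adjusted over 80 pairs. Neighbours and sequences come from RefSeq (GRCr8), which held 451 of the 493 names. On 1 simulated set of counts with set changes, the edgeR test recovered 81.9% of 193 changed miRNAs and called 0.83% of unchanged ones. Of 80 simulated pairs 57 were changed. The limma fit recovered 49.1% of the changed pairs, so it can miss changed pairs. It called 4.35% of the unchanged pairs, which were too few to give an error rate. Permutation tests and figures used Python 3.11.15, scipy 1.17.1 and matplotlib 3.10.9. Alternatives were other scalings, DESeq2 1.42.0, limma-voom, other filters, summed families, each listed 0 set to 9, a replicate block, other pair definitions, and each library left out.

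The members and lists were chosen with earlier results of these data known. The miRNAs named are the 6 members, others with their seeds, other muscle-enriched miRNAs, cell type markers, and the 2 nearest profiles of each member. Binomial intervals cover counting error only, since the reads carry no molecular identifiers used here.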

Additional observations from a re-analysis of the deposited data

How the results depend on the processing

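miR-1-3p, miR-1b, miR-206-3p and miR-499-5p stayed on their side of the 0.05 threshold and kept their sign in all alternatives that gave a value, as did both ratios of neighbouring genes, whose log2 differences ranged from 3.10 to 3.70 and from 3.36 to 3.95. miR-133b-3p kept its direction but not the threshold when TMM factors were computed without the top 10 miRNAs (log2 fold change -1.09, adjusted p = 0.0548) and with the replicate block (-1.25, adjusted p = 0.0582). With 1 library left out its log2 fold change lay between -1.37 and -0.84 and that of miR-133a-3p between -1.29 and -0.86, and 1 to 3 members were called lower. The cause was not tested. With a mean count above 200 required, miR-133b-3p was not tested, and summed families give no value for single members. With library totals only, 55 miRNAs were called higher and 208 lower, against 123 and 127. With the replicate block 82 were called lower and 180 in all, against 250, and with 1 library left out 84 to 131 were called lower. The replicate numbers did not pair the rats: the correlations of same-numbered libraries' deviations were 0.20, -0.12 and -0.11, and only number 1 correlated best with itself. Depth limits miR-133b-3p most, with 13 counts in 1 library.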
